A study of Mus musculus with 6 samples.

Results

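The 10 genes described here store iron as ferritin, export iron and heme, break heme down, or sense iron in the cell: Slc40a1, Fth1, Ftl1, Ireb2, Aco1, Hmox1, Ncoa4, Pcbp1, Pcbp2 and Flvcr1. They were chosen by name, and their probes were found by matching the accession of each array probe to RefSeq. This gave 18 of 41157 usable gene probes, of which 15, with at least 1 for each of the 10 genes, were bright enough to test. Bone marrow cells from the femurs of male ISAM mice aged 10 weeks were profiled on 6 one-colour Agilent arrays, 1 per sample. In 3 samples recombinant human erythropoietin (rHuEPO, 3000 U/kg) had been injected into the peritoneal cavity 6 h earlier, 2 samples had received phosphate-buffered saline (PBS) at the same time, and 1 was untreated. The PBS and untreated samples together form the control group of the study's design. All mice, controls included, had the genotype ISAM (Epo-/-::3.3K-Epo3'-Tg458) on a mixed strain background: the endogenous Epo gene is missing and an Epo transgene keeps the animals alive but anemic. No wild-type marrow is part of the comparison. The labels number the samples but do not tie them to separate animals, and p-values here reflect no more than the spread among these 6 samples.

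Erythroblasts take in more iron than any other marrow cell, nearly all of it for heme. Iron that is not used at once is held in ferritin, a shell built of heavy (Fth1) and light (Ftl1) chains, to which the chaperones Pcbp1 and Pcbp2 deliver iron and from which Ncoa4 releases it by carrying ferritin to the lysosome. Slc40a1 (ferroportin) is the exporter of iron, used above all by the macrophages that recycle old red cells, Hmox1 opens the heme ring in those macrophages, and Flvcr1 exports heme. Aco1 and Ireb2 encode the iron regulatory proteins IRP1 and IRP2, which in iron-poor cells bind hairpins in the messages of ferritin and ferroportin and block their translation. Much of the control of these genes therefore acts on protein, which an RNA array does not measure.

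None of the 10 genes passed the test of rHuEPO against control. Limma with Benjamini-Hochberg adjustment over 19600 probes called 0 of the 15 member probes, where 0.0561% of all tested probes (11, all higher) were called. At an unadjusted p under 0.05 it listed 0 of the 15 as well, where 4.53% of all tested probes (887) were listed. With slide as a block the counts over the 15 were again 0 and 0, beside 0.0663% (13) called and 11.2% (2191) listed over all probes. The differences between the groups were small: the median size over the 15 probes was 0.15 on the log2 scale, against 0.16 over all tested probes. In direction 9 of the 15 lay higher and 6 lower after rHuEPO, while 8 lay higher with quantile scaling, 11 with median scaling and 12 with normexp background correction. Their median was 0.057, where that of all probes was -0.014. Within slide 1 (1 array against 1) the differences ran from -0.43 for Ireb2 to 0.57 for an Ncoa4 probe, and within slide 2 (2 against 2) from -0.17 for another Ncoa4 probe to 0.74 for Hmox1. The sign was the same on both slides for 10 of the 15, where it was so for 61.8% of all tested probes. The adjusted p of each of the 15 by limma was 1.00, so only sizes and intervals are given for most genes below.

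Levels are given as relative signal, the probe's signal in multiples of the 75th percentile of all gene spots on the same array. Probes differ in how strongly they bind, so levels of different probes are not set against each other. In whole marrow a lower signal from fewer cells of a type and one from less RNA per cell cannot be told apart. Per the file headers, rHuEPO replicate 1 and the untreated sample shared slide 1, and the other 4 arrays shared slide 2.

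**Figure D1:**
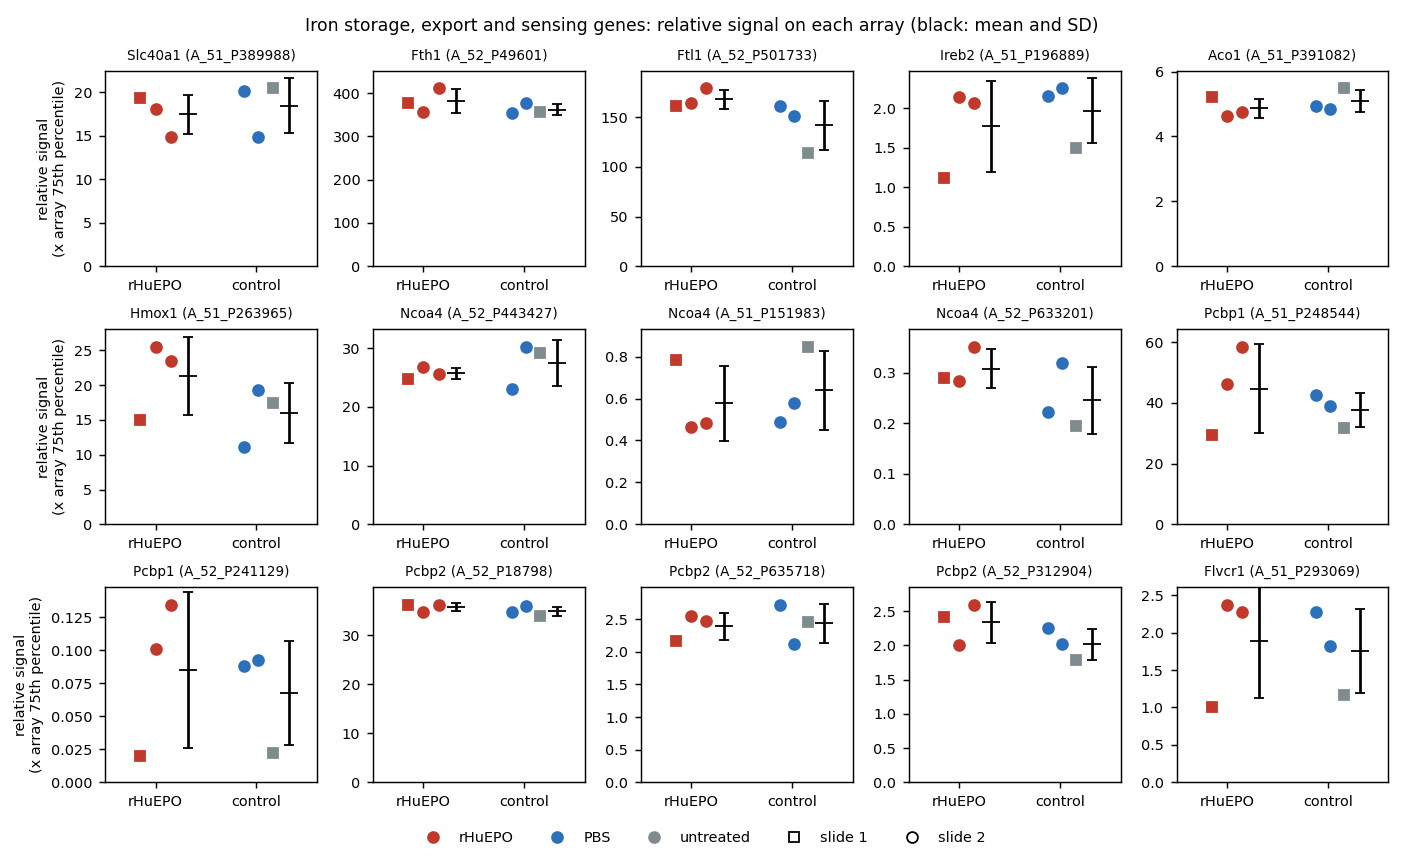
Relative signal (multiples of the array's 75th percentile, linear axis from 0) of the 15 tested probes on each array, rHuEPO at left and control (PBS and untreated) at right, with the mean and SD of 3 arrays in black. Squares are slide 1 and circles slide 2. Only for Ftl1 do all rHuEPO arrays lie above all controls, and for Ireb2, Flvcr1 and both Pcbp1 probes the squares of both groups lie lowest.

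Of the ferritin chains, Fth1, the heavy chain with the site that oxidises iron, had a relative signal of 377, 356 and 411 on the rHuEPO arrays, against 353 and 377 on the PBS arrays and 356 on the untreated array. The groups overlapped, and the highest array was only 1.16 times the lowest. The fold, rHuEPO over control, was 1.05 with a 95% interval of 0.807 to 1.37 by limma. On the log2 scale that is 0.07, and it was 0.594 with normexp background correction, which lies above the interval (limma adjusted p = 0.71).

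Ftl1, the light chain that helps the iron core form, had a relative signal of 161.4, 164.5 and 179.1 on the rHuEPO arrays, against 161.0 and 151.1 on the PBS arrays and 114.3 on the untreated array. It was the only member probe whose groups did not overlap, 1 of 15, where 9.84% of all tested probes (1929) did not overlap in one direction or the other. The gap between the lowest rHuEPO array and PBS replicate 1 was 161.4 against 161.0, and the untreated array was the one that stood low. The log2 difference was 0.26 ± 0.20 (SE, 3 against 3 arrays; limma adjusted p = 1.00, and 0.551 under the slide block). Against the PBS arrays alone it was 0.11, and with normexp it was 0.661. Within slide 1, 1 array against 1, it was 0.50, and within slide 2 it was 0.14. RefSeq lists pseudogenes of both ferritin chains, and how far each probe also reads such copies was not tested.

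Ncoa4, the cargo receptor that takes ferritin to the lysosome, had 3 tested probes. On its brightest probe (A_52_P443427) the relative signal was 24.7, 26.7 and 25.7 on the rHuEPO arrays, against 23.0 and 30.3 on the PBS arrays and 29.2 on the untreated array. All rHuEPO arrays lay inside the range of the controls, and the fold was 0.941 (95% interval 0.700 to 1.27). Its other probes gave folds of 0.901 (A_51_P151983, 0.558 to 1.45) and 1.28 (A_52_P633201, 0.873 to 1.87). The 3 probes thus did not share a direction, and each interval included 1. With normexp background correction the first and the third of these changed sign.

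The iron chaperones differed in spread. Pcbp2 on its brightest probe (A_52_P18798) had a relative signal of 36.2, 34.7 and 36.2 on the rHuEPO arrays, against 34.6 and 35.8 on the PBS arrays and 33.9 on the untreated array. Its residual SD lay at the 0.2 percentile of all tested probes, and its fold was 1.03 (95% interval 0.796 to 1.32). The other Pcbp2 probes had folds of 0.985 (0.734 to 1.32) and 1.16 (0.853 to 1.57). Pcbp1, on its bright probe (A_51_P248544), had a relative signal of 29.4, 46.2 and 58.5 on the rHuEPO arrays, against 42.6 and 39.0 on the PBS arrays and 31.7 on the untreated array. The lowest and the highest array were both rHuEPO arrays, and the fold was 1.15 (0.725 to 1.82). Both gene products also bind RNA, and their levels are no measure of iron delivery.

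The exporters did not differ beyond their spread either. Slc40a1 had a relative signal of 19.3, 18.1 and 14.9 on the rHuEPO arrays, against 20.1 and 14.8 on the PBS arrays and 20.5 on the untreated array. The groups covered nearly the same range, and the fold was 0.949 (95% interval 0.676 to 1.33). The log2 difference was -0.075, but 0.354 with normexp, 0.084 with the replicate block and 0.05 with array weights, so it has no direction here. Flvcr1 had a relative signal of 1.01, 2.37 and 2.28 on the rHuEPO arrays, against 2.28 and 1.82 on the PBS arrays and 1.16 on the untreated array. The low array of each group was the one on slide 1. The fold was 1.04 with an interval of 0.545 to 1.99, which narrowed to 0.796 to 1.36 with slide as a block.

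The iron regulatory proteins gave no difference that passed the test. Aco1, which is a cytosolic aconitase when it carries an iron-sulfur cluster, had a relative signal of 5.20, 4.64 and 4.75 on the rHuEPO arrays, against 4.94 and 4.86 on the PBS arrays and 5.48 on the untreated array. Its fold was 0.955 (95% interval 0.731 to 1.25), and its residual SD lay at the 2.9 percentile of all tested probes. Ireb2, whose protein is degraded when iron is plentiful, had a relative signal of 1.11, 2.14 and 2.06 on the rHuEPO arrays, against 2.16 and 2.25 on the PBS arrays and 1.49 on the untreated array. The groups overlapped, and the fold was 0.879 (0.531 to 1.45, and 0.697 to 1.11 with slide as a block). The second Aco1 probe and the Ireb2 probe A_52_P77332 never rose well above background. The third Ireb2 probe, A_52_P680908, did so on 1 control array alone. These 3 probes were too dim to test.

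Hmox1 had the largest fold of the 15 probes. Its relative signal was 14.9, 25.6 and 23.4 on the rHuEPO arrays, against 11.1 and 19.4 on the PBS arrays and 17.4 on the untreated array. The groups overlapped, since rHuEPO replicate 1 lay below 2 of the 3 controls. The log2 difference was 0.42 ± 0.30 (SE, 3 against 3 arrays; limma adjusted p = 1.00), a fold of 1.34 with an interval of 0.823 to 2.17. With normexp the log2 difference was 0.921 (limma adjusted p = 0.71). It was -0.22 within slide 1 (1 array against 1) and 0.74 within slide 2 (2 against 2), and the difference between these was not tested. The interval thus takes in a fall to about its lower bound, no change, and a rise to about its upper bound.

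**Figure D2:**
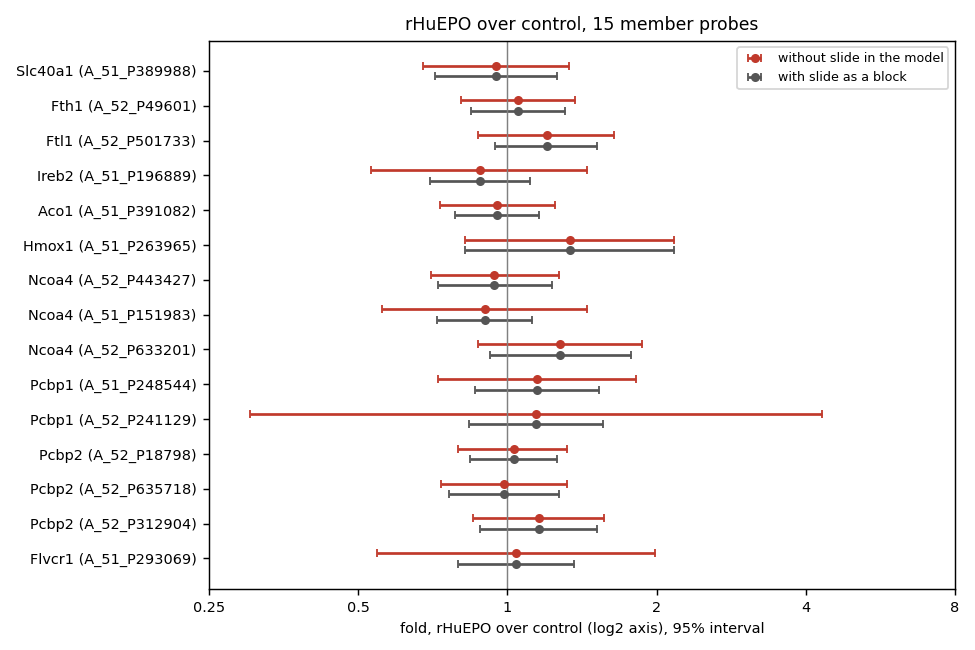
Fold, rHuEPO over control, of the 15 tested probes on a log2 axis with 95% intervals from limma, without slide in the model (red) and with slide as a block (grey). Each interval includes 1, the widest being that of the dim Pcbp1 probe, 0.303 to 4.31, and the narrowest those of Pcbp2 A_52_P18798, Aco1 and Fth1.

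The slides were compared on the 14 member probes that were well above background on all 6 arrays, a comparison and a filter chosen after seeing the data. The slide difference, read from the fit that holds treatment and slide together, was larger than the treatment difference for 8 of the 14, as for 71.3% of all such probes. Slide 2 against slide 1 passed the test for 3 of the 14, where 14.0% of all such probes (2433 of 17440) passed. Flvcr1 was 2.01-fold higher on slide 2 (95% interval 1.51 to 2.67; limma adjusted p = 0.0237). Ireb2 was 1.67-fold higher (1.31 to 2.14; limma adjusted p = 0.0303). The bright Pcbp1 probe was 1.51-fold higher and did not pass (1.12 to 2.04; limma adjusted p = 0.0729). The dim Pcbp1 probe A_52_P241129 passed the brightness filter through slide 2 and was not well above background on either array of slide 1, so its difference is a description with no test. Its relative signal was 0.101 and 0.135 on the rHuEPO arrays and 0.0880 and 0.0923 on the PBS arrays of slide 2, against 0.0202 on the rHuEPO array and 0.0226 on the untreated array of slide 1. Since both slide 1 values were not well above background, the size of the difference is not given as a fold.

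The 3 probes of Ncoa4 had slide folds on both sides of 1. Probe A_51_P151983 had a relative signal of 0.464 and 0.484 on the rHuEPO arrays and 0.490 and 0.579 on the PBS arrays of slide 2, against 0.783 on the rHuEPO array and 0.848 on the untreated array of slide 1. It was lower on slide 2, at 0.616 times slide 1 (95% interval 0.487 to 0.779; limma adjusted p = 0.0313). The brightest Ncoa4 probe was at 0.977 (0.739 to 1.29) and the third at 1.23 (0.867 to 1.74), and the difference between probes was not tested. Fth1, Aco1 and the 3 Pcbp2 probes had slide folds of 0.898 to 1.07. The slides did not overlap for 5 of the 14 probes, where 44.0% of all such probes (7666) did not, so that share is near the background. Because the untreated sample is the control of slide 1 and the PBS samples are those of slide 2, slide and PBS injection cannot be told apart within the controls.

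**Figure D3:**
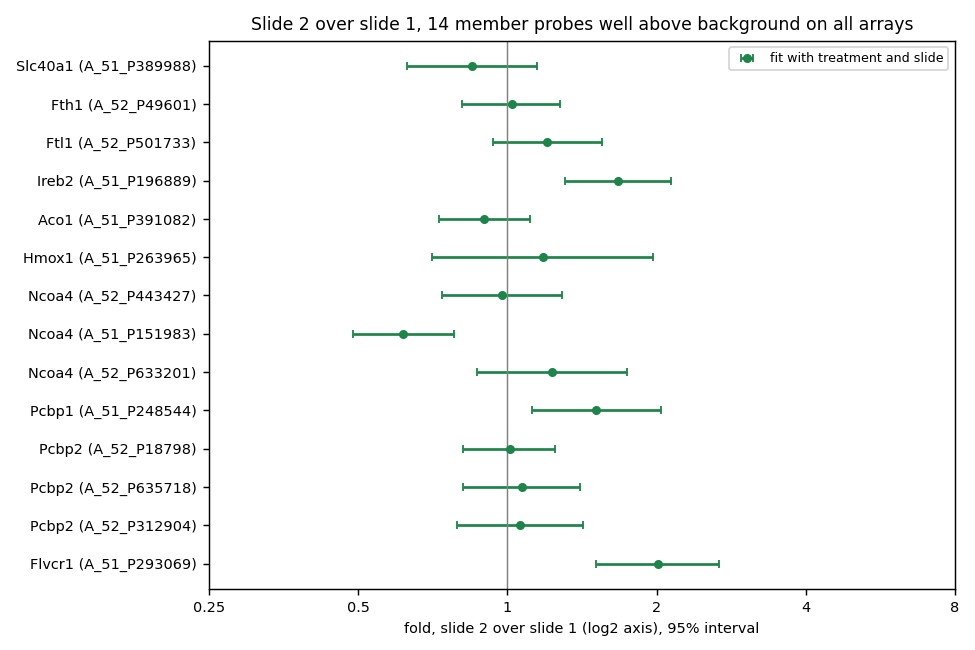
Fold, slide 2 over slide 1, of the 14 member probes well above background on all arrays, on a log2 axis with 95% intervals, from the limma fit with treatment and slide. Flvcr1, Ireb2 and the bright Pcbp1 probe lie right of 1 and Ncoa4 A_51_P151983 left of it, while Fth1, Aco1 and Pcbp2 lie close to 1.

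The rest of the pathway was read from 7 lists with 87 further genes, of which 66 had a tested probe. Limma called none of the 66 over all probes, where 0.0606% of all genes were called, and 6 were listed at an unadjusted p under 0.05, where 4.80% of all genes were. In 8, Rcc1l among them, the rHuEPO arrays all exceeded the controls and in 0 they all fell short, where 5.01% and 5.38% of all 14861 genes did so. Shares over all genes include accessions without a gene name, each counted as a gene. Their median log2 difference was 0.068, against -0.015 over all genes, and 39 of the 66 lay above 0, where 47.3% of all genes did.

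Among iron uptake genes, 8 of 12 tested lay above 0, or 7 of 11 without Rcc1l, which stands in the list without an established role in iron uptake. Tfrc, the transferrin receptor, had a relative signal of 12.6, 13.6 and 14.1 on the rHuEPO arrays, against 5.80 and 8.35 on the PBS arrays and 6.67 on the untreated array. All rHuEPO arrays lay above all controls, but the log2 difference of 0.97 ± 0.20 (SE, 3 against 3 arrays) did not pass over all probes (limma adjusted p = 0.534, and 0.234 under the slide block). Slc39a8, a metal carrier of the ZIP family, was at 1.22 ± 0.29 and Rcc1l at 0.43 ± 0.21, also without overlap (limma adjusted p = 0.653 and 1.00).

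Among genes of heme transport and breakdown outside the 10, 7 of 9 tested lay above 0. Abcg2, a membrane pump that carries porphyrins, had a relative signal of 13.2, 11.0 and 13.5 on the rHuEPO arrays, against 4.32 and 7.80 on the PBS arrays and 5.98 on the untreated array. Its log2 difference was 1.09 ± 0.25 (limma adjusted p = 0.653). Spic, the factor that directs macrophages to iron recycling, was at 0.45 ± 0.25, and the porphyrin carrier Abcb6 at 0.37 ± 0.24. The groups of Spic and Abcb6 overlapped.

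BACH1 and NRF2, which respond to heme and oxidants, control Hmox1 and the ferritin genes. Of 15 tested genes of that axis 12 lay above 0 and none passed. Srxn1, which repairs peroxiredoxins, had a relative signal of 5.28, 5.32 and 4.78 on the rHuEPO arrays, against 2.87 and 3.48 on the PBS arrays and 2.84 on the untreated array (log2 difference 0.75 ± 0.17; limma adjusted p = 0.653). Maff, a small Maf partner, was at 1.29 ± 0.34 and the thioredoxin reductase Txnrd1 at 0.60 ± 0.20 (limma adjusted p = 0.804 and 0.969). For all 3 the rHuEPO arrays exceeded the controls without overlap.

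Of the 10 messages known to carry an iron responsive element, 5 lay above 0 and 5 below, with a median of 0.00. After Tfrc the smallest p was that of Epas1, the hypoxia factor HIF-2α, at 0.85 ± 0.37 with overlapping groups (limma adjusted p = 1.00). Ftl1 came after it. The ferritin and chaperone relatives had a median of 0.05 over 6 tested genes, among them Bola2 (0.26 ± 0.27) and Glrx3 (0.10 ± 0.28). Of the ferroptosis and ferritin turnover genes 10 of 12 lay below 0, where 47.3% of all genes lay above 0. Their median was -0.098, with 0.027 within slide 1 and -0.173 within slide 2. Those with the smallest p were Slc3a2 (0.36 ± 0.21), Wipi2 (-0.38 ± 0.23) and Lpcat3 (-0.28 ± 0.18), and none passed. The plasma and systemic iron genes had a median of 0.044 over 8 tested genes, led by Cd163 (0.49 ± 0.38), Cp (0.19 ± 0.32) and Hp (0.086 ± 0.24). The hepcidin gene Hamp, a liver hormone gene, was too dim to test, as were 16 others of the 87.

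Cell markers bear on the reading of Slc40a1 and Hmox1, which macrophages make. Of 16 macrophage markers 14 were tested, 12 of them above 0, and none passed. Their median log2 difference was 0.38, with 0.11 within slide 1 and 0.53 within slide 2. Their summed relative signal ran from 65.0 to 76.2 with rHuEPO and from 59.9 to 66.1 in controls. Vsig4 was too dim to test, no probe was matched to Cd68, and Timd4 was well above background on the 3 control arrays alone. Of 16 erythroid markers 14 were tested, 11 above 0, with a median of 0.32, and none of them passed either. Their sum was 2200 to 2595 with rHuEPO and 2178 to 2521 in controls. Most of each sum came from the globin probes Hbb-bt (940 to 1110 over all arrays) and Hba-a1 (739 to 906), so it says little about the other markers. The part of either cell type in the values of Hmox1 and Slc40a1 was not tested. Granulocyte markers, 10 of 12 tested, had a median of 0.009. Megakaryocyte and B lineage markers had medians of -0.14 and -0.23, also without a call. For the megakaryocyte list the median was -1.25 within slide 1 and 0.37 within slide 2. Its summed relative signal was 64.4, 291.8 and 171.5 on rHuEPO replicates 1, 2 and 3, against 154.2 to 202.7 in controls. For the B lineage list the medians were -0.51 and -0.016, and the sum ran from 127.0 to 159.8 with rHuEPO, against 63.8 on PBS replicate 1 and up to 337.0 in the other controls. Stroma and endothelium markers had a median of -0.19, with -1.19 within slide 1 and 0.37 within slide 2, and no call. The part of these cells in the values of the 10 genes was not tested.

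**Figure D4:**
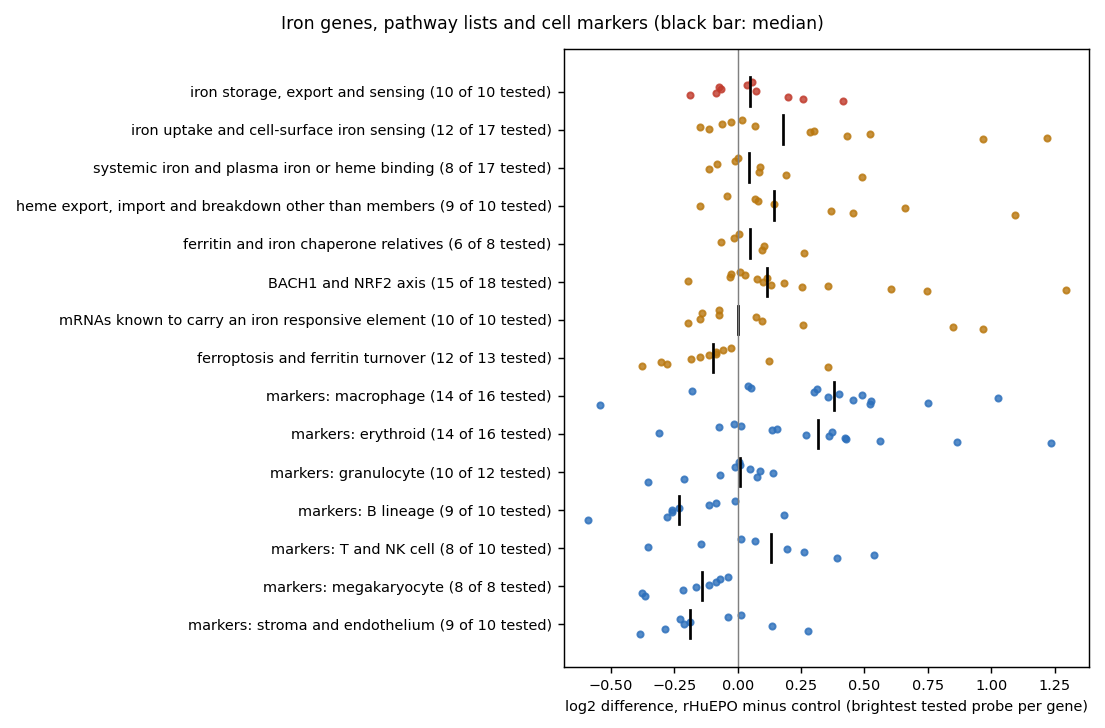
Log2 difference, rHuEPO minus control, of the brightest tested probe of each gene, for the iron storage, export and sensing genes (red), the pathway lists (ochre) and the cell markers (blue), with the median of each list as a black bar. The 10 genes lie between -0.19 and 0.42, while single genes of other lists, such as Tfrc, Slc39a8, Abcg2 and Maff, lie near or above 1.

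The genes whose pattern over the 6 arrays was most like that of the 2 members with the smallest p were looked up among 10220 named genes well above background on all arrays. For Ncoa4 probe A_52_P633201 they were Adk (Pearson r = 0.993), Isca2 (0.986) and Urod (0.985). This is the dimmest tested Ncoa4 probe, with a log2 difference of 0.355, where the other Ncoa4 probes were at -0.087 and -0.15. These likenesses therefore hold for that probe and not for the gene. For Hmox1 they included Ipo11 (0.993) and Dvl1 (0.986). These are a description: with 6 arrays that share slides and groups, the best of so many genes will correlate highly.

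For Slc40a1 and Hmox1 no promoter window was at hand. For the other 8 of the 10 genes, RefSeq starts (GRCm38.p6, 250 bases before to 50 after each) gave 12 windows, some of which overlap. Each was searched on both strands for TTCNNNGAA (the type bound by STAT5), AGATAA (the type bound by GATA factors) and TGACNNNGC (the type bound by NRF2 and BACH1 with small Maf proteins). Over all 32851 windows 8.30% held the first, 11.2% the second and 12.4% the third. Of the 12 member windows 2 held TGACNNNGC and 0 held either other motif. With so few windows these counts are near the shares over all windows. Both stretches are shown. Capitals mark the match, which starts 151 bases before the start of Flvcr1 (chr1:191026323-191026351, minus strand) and 44 bases before one of the starts of Ncoa4 (chr14:32165735-32165763, plus strand).
Flvcr1: ttcacaagctTGACCCCGCccctcttctc
Ncoa4: aggcggggcgTGACCTGGCcggtagggta
A match is a description of these letters and not a measured site, and neither gene differed between rHuEPO and control beyond its spread.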

How the data were processed

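Per the labels' protocols, the RNA of each marrow sample was labelled with Cy3 for a 1-colour Agilent array. The deposited scanner files hold background-subtracted spot intensity and, per the file headers, were written by Feature Extraction 10.7.3.1. How the log2 values of the deposited table were scaled is not stated in the sources used here. They matched log2 processed signals over the 75th percentile, centred per probe (slope of at least 0.9988), with column medians of 0.117, 0.0111 and 0.0867 for rHuEPO, -0.0569 and -0.0976 for PBS and -0.103 for the untreated array.

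Each processed signal was divided by its array's 75th percentile (220.7 to 264.0) and put on a log2 scale. Control spots (1639) and outlier spots were dropped, repeat spots were averaged, and 17 probes whose value was missing on some array were dropped. Saturated spots did not occur. Of the gene spots, 46.2% to 46.6% were well above background with rHuEPO and 48.6% to 50.5% in controls. Testing required this on at least 3 of 6 arrays. Names came from accessions matched to RefSeq of GRCm38.p6 (64.8% of probes). The array design's coordinates are of another build and are not given. Tests used limma 3.58.1 in R 4.3.3 (two-sided, adjusted over all tested probes, threshold 0.05), 3 rHuEPO against 3 control arrays, and were tested on simulated data. Intervals are limma's 95% intervals, unadjusted, and the number of arrays limits their precision.

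The members and gene lists were chosen with earlier results of these data known. All 10 members are named, with the 3 genes of each pathway list that had the smallest p. Some genes that this rule picks are left out of the text. Alternatives covered scaling, background, filter, controls, variance model, slide, replicate number and leaving out arrays. Normexp used median signals with an offset of 50, since the files used here carry no mean signal.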

Additional observations from a re-analysis of the deposited data

How the results depend on the processing

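None of the member probes was called by limma in any of the 19 alternatives. The smallest adjusted p of a member was 0.221, for the dim Ireb2 probe A_52_P680908 without the filter on dim probes, and 0.462 over the 15 tested probes. The number of calls over all probes did move, against 11. It was 1 with normexp background correction, 2 without the filter, 4 with only probes well above background on all arrays, 4 with PBS only as control and 1 with the replicate number as a replicate block. With array weights 26 were called, 24 higher and 2 lower. Leaving out 1 array gave 2 to 7. There were 7 calls when PBS replicate 2 was left out, 4 for the untreated array or rHuEPO replicate 1, and 2 for PBS replicate 1 or for either of the remaining rHuEPO arrays. The cause was not tested. Fth1, Ftl1, Hmox1 and Pcbp2 probe A_52_P312904 kept their sign in every alternative, and the other 11 probes turned in at least 1. The alternatives are not 19 separate checks of sign. The slide block, the variance model and the probe filters leave the log2 difference as it was. PBS only as control and leaving out the untreated array give the same difference. With normexp the median over the member probes was 0.29, with -0.001 over all probes. The probes were not matched in brightness, so these medians do not show a rise of the members. Brighter members moved up, such as Fth1 (from 0.072 to 0.594). The dimmest moved down: Ncoa4 A_52_P633201 (0.355 to -0.125), Ncoa4 A_51_P151983 (-0.15 to -0.262) and the dim Pcbp1 probe. That Pcbp1 probe was at -0.462, against 0.192 with the deposited background-subtracted signals. Negative control spots had median signals of 4.73 to 5.51 with rHuEPO and 3.74 to 4.03 in controls, and their part was not tested. Hmox1 ranged from 0.177 to 0.655 when single arrays were left out, lowest without PBS replicate 1, and Ftl1 from 0.109 to 0.356. Deviations of rHuEPO and PBS arrays with the same replicate number correlated at -0.039 and -0.123. With 2 PBS arrays these rest on a single contrast and its mirror image, so whether the numbers pair the samples is not settled, and the replicate block is given as an alternative only.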
